A study of Mus musculus with 288 samples.

Results

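The genes described here encode the enzymes of cholesterol and fatty acid synthesis and the proteins that control them. They were chosen by name from a list of 34 mouse genes and looked up among the 23481 genes of the deposited table, where 33 stood under the listed symbol and Msmo1 under its older symbol Sc4mol. Of the 34, 18 encode sterol enzymes, 6 encode regulators of sterol synthesis and 10 encode enzymes of fatty acid synthesis, elongation and desaturation. Bone marrow-derived macrophages (BMDMs) were differentiated from C57BL/6 mice, age 12 weeks, in DMEM with 10% FBS and M-CSF over 7 days. Pretreatment lasted 24 h. A control group received the solvent DMSO, another 100 nM dCA and the third 1 µM of BRD-6989, and the labels name dCA and BRD-6989 as CDK8 inhibitors. The cells were then left unstimulated (NoStim) or given 1 of 11 stimuli, named as in the labels: LPS, MDP_LPS, Pam3cys, CpG, R848, FLA, Poly(I:C), SeV, Zymosan, TDB and MDP. Messenger RNA was read by 3′ digital gene expression at 8 times from 15 to 180 min, so that every combination was a single well and the wells numbered 288. Each pretreatment filled its own plate with its own library index, so that inhibitor and plate cannot be told apart. On each plate a stimulus was also a column and a time a row, and nothing in the labels says that wells came from different cultures or mice. All p-values therefore measure the spread between wells or libraries summed from them, which may be technical.

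Cholesterol is built from acetyl-CoA through mevalonate, isoprenoid diphosphates, squalene and lanosterol, and most enzymes of the route are controlled together by the transcription factor SREBP-2. SREBP precursors sit in the endoplasmic reticulum with their escort Scap and are held there by Insig proteins while sterols are plentiful. SREBP-1c, a product of Srebf1, drives fatty acid synthesis genes and is itself induced by the liver X receptors (LXRs), the sensors of oxysterols. In macrophages the route competes with uptake of lipoprotein cholesterol, and surplus sterol leaves the cell through ABC transporters.

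Levels are given as CPM, that is UMI (unique molecular identifiers, each marking 1 captured transcript) scaled to a library total of 1000000 without Rn45s, the 45S ribosomal RNA precursor. A UMI count at the 3′ end is not divided by transcript length, and no level is compared here between genes. Wells held 21810 to 70797 UMI outside Rn45s, and the 36 libraries made by summing the 8 times of each pretreatment and stimulus held 227325 to 449471. The Rn45s share of all UMI differed between plates and averaged 52.7% ± 6.88 (SD, n = 96 wells) under DMSO, 49.0% ± 7.04 under dCA and 43.6% ± 6.75 under BRD-6989. The macrophage label was borne out by 12 of 12 macrophage markers with UMI, whose summed level over the 12 libraries of a pretreatment was 11095 to 13618 CPM under DMSO, 10883 to 12580.1 under dCA and 11177 to 13006 under BRD-6989. Erythroid markers were at 0 UMI in all 5 genes, and Cd3e and Cd3g were at 0 among T cell markers. The 8 neutrophil markers in the table, with Elane at 0, summed to 15.3 to 61.6 CPM under DMSO, 0 to 13.3 under dCA and 0 to 9.15 under BRD-6989, and the 4 dendritic cell markers, with Flt3 at 0, to 172 to 320.5 CPM under DMSO, 179 to 326 under dCA and 140.0 to 225 under BRD-6989. Of 7 adipocyte and stromal markers 4 were at 0, among them Adipoq and Plin1. The neutrophil sum was lower on both inhibitor plates and the dendritic sum on the BRD-6989 plate, and the part of either in the results below was not tested. In bulk wells, fewer cells of a type and less RNA per cell cannot be told apart. The dendritic list was Flt3, Zbtb46, Siglech and Bst2. Its sum was not split by gene, so its lower level may not concern dendritic cells.

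The promoter windows of the sterol enzyme genes are shown first because most of these genes were higher under both inhibitors. RefSeq windows (GRCm38.p6, the mm10 assembly) were matched by symbol for 27 of the 34 genes, and the 250 bases before each annotated start were searched on both strands for 4 motifs. These were TCACNCCAC, a sterol regulatory element type bound by SREBPs, CCAAT, the box bound by NF-Y, GGGCGG, the GC box bound by SP1, and CACGTG, an E-box. The 5 windows below belong to the sterol enzymes with the largest mean log2 change over both inhibitors among those called under both. Each is written 5′ to 3′ on the strand of its gene, and capitals mark a match to any of the 4 motifs on either strand.
Mvd lies on the minus strand at chr8:122443423-122443672, Msmo1 on the minus strand at chr8:64733579-64733828, Hmgcs1 on the plus strand at chr13:119690101-119690350, Idi1 on the plus strand at chr13:8885356-8885605 and Sc5d on the minus strand at chr9:42264301-42264550.
Mvd: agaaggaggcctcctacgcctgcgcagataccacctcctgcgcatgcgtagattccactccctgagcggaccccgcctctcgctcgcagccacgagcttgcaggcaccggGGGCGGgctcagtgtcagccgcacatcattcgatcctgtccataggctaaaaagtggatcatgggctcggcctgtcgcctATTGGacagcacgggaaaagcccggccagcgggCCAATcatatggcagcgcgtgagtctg
Msmo1: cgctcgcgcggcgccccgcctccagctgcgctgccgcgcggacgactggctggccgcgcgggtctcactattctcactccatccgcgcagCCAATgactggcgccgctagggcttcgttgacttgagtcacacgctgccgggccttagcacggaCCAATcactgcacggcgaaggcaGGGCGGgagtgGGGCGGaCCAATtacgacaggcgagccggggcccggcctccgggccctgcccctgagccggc
Hmgcs1: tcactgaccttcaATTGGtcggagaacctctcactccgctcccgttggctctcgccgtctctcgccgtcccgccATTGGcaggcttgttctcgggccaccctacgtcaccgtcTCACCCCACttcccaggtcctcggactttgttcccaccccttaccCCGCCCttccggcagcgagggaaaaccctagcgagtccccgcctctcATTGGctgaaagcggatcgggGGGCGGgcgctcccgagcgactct
Idi1: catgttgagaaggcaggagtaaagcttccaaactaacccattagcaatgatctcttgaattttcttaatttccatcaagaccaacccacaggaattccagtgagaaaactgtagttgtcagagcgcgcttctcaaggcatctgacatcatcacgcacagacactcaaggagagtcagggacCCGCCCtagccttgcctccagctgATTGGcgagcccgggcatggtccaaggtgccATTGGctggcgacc
Sc5d: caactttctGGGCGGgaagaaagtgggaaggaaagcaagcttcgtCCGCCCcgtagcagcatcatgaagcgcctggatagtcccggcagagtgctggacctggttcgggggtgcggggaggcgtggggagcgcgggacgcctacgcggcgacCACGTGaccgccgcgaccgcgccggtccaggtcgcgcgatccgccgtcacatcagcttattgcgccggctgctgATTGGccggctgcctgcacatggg

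CCAAT occurred in 14 of the 15 sterol enzyme genes with a window, against 37.5% of all 27025 genes with one. GGGCGG also occurred in 14 of 15, against 35.4% of all genes. Hmgcs1 alone among the 27 genes held TCACNCCAC, read TCACCCCAC at 137 to 129 bases before the start, against 1.22% of all genes. CACGTG occurred in 3 of 15 (Dhcr7, Hsd17b7 and Sc5d), against 6.86%. Of the 5 regulator genes with a window, 4 held CCAAT and 5 held GGGCGG, while 3 of the 7 fatty acid genes held CCAAT and 3 held GGGCGG. No match overlapped a match to another motif in these 27 genes. A match describes these letters only, and its absence says nothing of the factor.

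The first comparison asked whether pretreatment with either inhibitor shifted these genes across all conditions. Most sterol enzymes that could be tested rose, 11 of 16 under dCA and 13 of 16 under BRD-6989, where 9.82% and 10.5% of all genes tested were higher and 8.12% and 10.5% lower. Of 6 fatty acid genes tested, 3 rose under dCA and 2 under BRD-6989. Of 5 regulators tested, 2 rose under dCA, and 1 rose and 1 fell under BRD-6989. The summed level of the 18 sterol enzymes, as the lowest, median and highest of the 12 libraries of a pretreatment, was 759.7, 992 and 1060.4 CPM under DMSO, 1289, 1546 and 1893 under dCA and 1353, 1748 and 2135 under BRD-6989. Every dCA library and every BRD-6989 library lay above every DMSO library. Within each of the 12 conditions the sum was higher under dCA by 0.56 to 0.98 on the log2 scale, with a median of 0.77, and higher under BRD-6989 by 0.43 to 1.40, with a median of 0.96. The smallest difference under BRD-6989 was with LPS and the largest with MDP. Sums over the 12 conditions at each of the 8 times were also higher in 8 of 8 under both inhibitors. Fatty acid genes summed to 501, 684 and 759.7 CPM under DMSO, 695, 933 and 1249 under dCA and 702.5, 992 and 1268 under BRD-6989, higher in 12 of 12 conditions under both inhibitors, with ranges that overlapped those of DMSO. The 6 regulators summed to 532, 615 and 834 CPM under DMSO, 602, 708 and 852 under dCA and 544, 666 and 893 under BRD-6989, higher in 8 of 12 conditions under each inhibitor, and their ranges overlapped throughout.

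**Figure D1:**
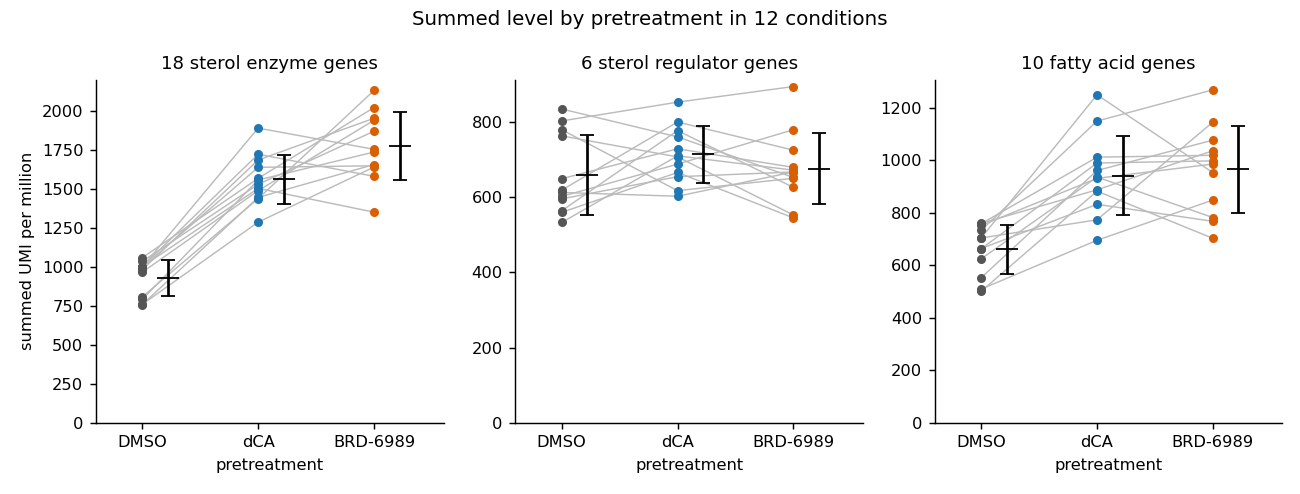
Summed level in CPM (vertical axis) of the sterol enzyme, sterol regulator and fatty acid genes by pretreatment. Each point is 1 library summed over 8 times, grey lines join the same condition across plates, and black bars give the mean and SD over 12 libraries. The sterol enzyme sums under both inhibitors, 1289 or higher, all lie above the highest DMSO sum of 1060.4.

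Genes were then tested one by one over the 36 libraries, with the 12 conditions as blocks, by edgeR's quasi-likelihood test with Benjamini-Hochberg adjustment over all 5691 genes that passed a filter on low counts. Of the 34 genes, 27 passed it. Under dCA 16 of the 27 were higher at an adjusted p under 0.05 and 0 were lower, where 9.82% of all genes tested were higher and 8.12% lower. Under BRD-6989 16 were higher and 1 was lower, where 10.5% of all genes were higher and 10.5% lower. The median log2 change of the 27 was 0.65 under dCA and 0.74 under BRD-6989, against -0.01 and 0.00 over all genes tested. Both comparisons share the 12 DMSO libraries, so their values are given side by side and are not independent of each other. Once the fit held each library's Rn45s share as a covariate, which moves with the plate, the higher genes numbered 12 under dCA and 4 under BRD-6989 (Hmgcs1, Idi1, Fasn and Stard4), while the calls over all genes went from 1021 to 601 and from 1197 to 194. The median change of the 27 genes in that fit was 0.70 and 0.66. Single genes differed widely under BRD-6989, where Sqle went from 0.74 to 0.03, Lss from 1.07 to 0.31 and Nsdhl from 1.23 to 0.26, while Hmgcs1 and Idi1 stood at 1.46 and 1.48. With total read counts in place of UMI the higher genes numbered 9 and 13.

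**Figure D2:**
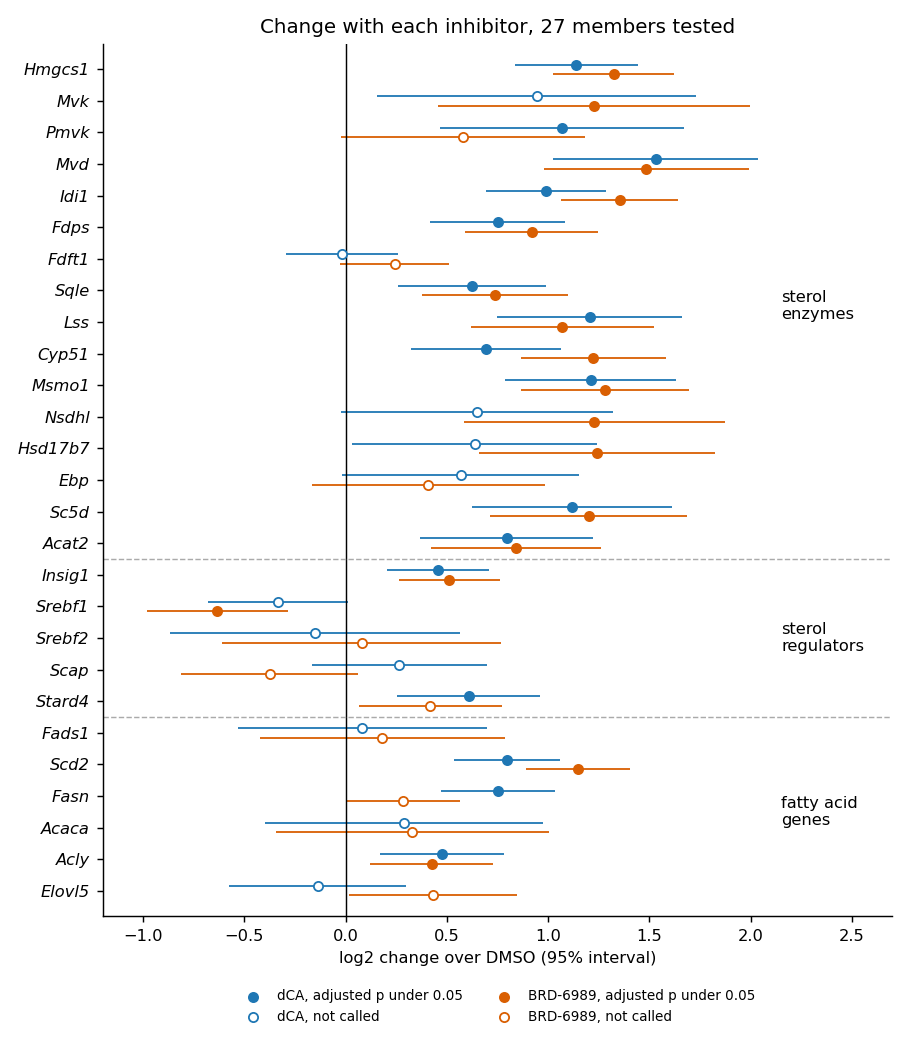
Log2 change over DMSO (horizontal axis) with its 95% interval for the 27 genes tested, in pathway order, under dCA (blue) and BRD-6989 (orange). Filled points have an adjusted p under 0.05, which 16 genes reach upward under each inhibitor and Srebf1 reaches downward under BRD-6989.

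Levels below are the lowest, median and highest of the 12 libraries per pretreatment, and changes are log2 ± SE with the adjusted p of that test. For single genes, counts of conditions or times and any lack of overlap between libraries stand without the share over all genes. They describe the values and are not read as results. The route opens with Acat2, which condenses acetyl-CoA units, and Hmgcs1, which makes HMG-CoA. Acat2 stood at 17.1, 46.5 and 95.2 CPM under DMSO, 37.7, 85.1 and 124 under dCA and 35.5, 99.7 and 115 under BRD-6989. It rose by 0.80 ± 0.22 (adjusted p = 0.0056) under dCA and by 0.84 ± 0.21 (adjusted p = 0.0024) under BRD-6989, and was higher than under DMSO in 10 of 12 conditions with each. Hmgcs1, a classical SREBP-2 target, stood at 65.98, 93.1 and 178 CPM under DMSO, 90.1, 206 and 334 under dCA and 149.9, 254 and 345 under BRD-6989. It rose by 1.14 ± 0.15 (adjusted p = 7.0e-08) and by 1.32 ± 0.15 (adjusted p = 6.8e-10), and was higher in 12 of 12 conditions and at 8 of 8 times under both inhibitors, although the ranges of the libraries overlapped.

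Mvk, Pmvk and Mvd phosphorylate and decarboxylate mevalonate to isopentenyl diphosphate. Mvd stood at 4.40, 27.1 and 47.6 CPM under DMSO, 23.9, 61.1 and 132 under dCA and 40.9, 67.6 and 95.7 under BRD-6989. Its libraries were low under DMSO and higher in 12 of 12 conditions under both inhibitors, with rises of 1.53 ± 0.26 (adjusted p = 7.4e-06) under dCA and 1.48 ± 0.26 (adjusted p = 1.1e-05) under BRD-6989, the largest of the genes tested under each. Mvk stood at 3.40, 9.34 and 53.6 CPM under DMSO, 6.27, 24.6 and 57.3 under dCA and 11.9, 32.8 and 61.8 under BRD-6989, with a change of 0.94 ± 0.40 (adjusted p = 0.10) under dCA, which missed the threshold, and a rise of 1.23 ± 0.39 (adjusted p = 0.019) under BRD-6989. Pmvk stood at 7.16, 21.6 and 51.5 CPM under DMSO, 18.8, 51.3 and 79.5 under dCA and 11.01, 38.4 and 62.5 under BRD-6989. It rose by 1.07 ± 0.31 (adjusted p = 0.0089) under dCA, while the change under BRD-6989 was 0.58 ± 0.31 (adjusted p = 0.19). The tests of the difference between the inhibitors did not call Mvk or Pmvk, with 95% intervals of -0.43 to 1.00 and -1.06 to 0.08 for BRD-6989 minus dCA.

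Idi1 isomerises isopentenyl diphosphate, and Fdps joins the units to farnesyl diphosphate, where sterol and nonsterol branches part. Idi1 stood at 46.8, 85.8 and 130.1 CPM under DMSO, 95.5, 153 and 226 under dCA and 140.2, 219 and 296 under BRD-6989, and every BRD-6989 library lay above every DMSO library. It rose by 0.99 ± 0.15 (adjusted p = 9.8e-07) and by 1.35 ± 0.15 (adjusted p = 1.5e-10), and was higher in 12 of 12 conditions with each. Fdps stood at 45.9, 97.2 and 163 CPM under DMSO, 92.5, 142 and 245 under dCA and 117, 164 and 229 under BRD-6989. It rose by 0.75 ± 0.17 (adjusted p = 7.7e-04) and by 0.92 ± 0.17 (adjusted p = 2.5e-05), in 9 and 11 of 12 conditions.

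Fdft1, squalene synthase, makes the first committed step toward sterols and was not called under either inhibitor. It stood at 92.6, 149 and 226 CPM under DMSO, 87.5, 136 and 225 under dCA and 125, 175 and 274 under BRD-6989. Its range under dCA was nearly that under DMSO, while under BRD-6989 the lowest, median and highest were each higher, with overlap. Its changes were -0.02 ± 0.14 (adjusted p = 0.95) under dCA and 0.24 ± 0.14 (adjusted p = 0.23) under BRD-6989, with 95% intervals of -0.30 to 0.26 and -0.03 to 0.51. Sqle, squalene epoxidase, stood at 26.8, 63.6 and 139 CPM under DMSO, 38.6, 110.2 and 152 under dCA and 70.9, 113 and 177 under BRD-6989. It rose by 0.62 ± 0.19 (adjusted p = 0.012) and by 0.74 ± 0.18 (adjusted p = 0.002), in 10 of 12 conditions with each. Lss, which closes the ring to lanosterol, stood at 14.4, 54.3 and 98.02 CPM under DMSO, 50.4, 117 and 218 under dCA and 44.5, 108 and 176 under BRD-6989. It rose by 1.21 ± 0.23 (adjusted p = 7.9e-05) and by 1.07 ± 0.23 (adjusted p = 3.2e-04), and was higher in 12 of 12 conditions with each.

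The later enzymes take lanosterol to cholesterol. Cyp51, the lanosterol demethylase, stood at 22.97, 53.2 and 107 CPM under DMSO, 52.7, 89.4 and 139 under dCA and 81.8, 136 and 188 under BRD-6989. It rose by 0.69 ± 0.19 (adjusted p = 0.0055) under dCA and by 1.22 ± 0.18 (adjusted p = 5.1e-07) under BRD-6989. Msmo1 is the sterol methyl oxidase of a separate, later demethylation. It stood at 17.00, 45.3 and 75.4 CPM under DMSO, 59.6, 98.9 and 141 under dCA and 68.8, 99.5 and 165 under BRD-6989. Its rises were 1.21 ± 0.21 (adjusted p = 1.9e-05) and 1.28 ± 0.21 (adjusted p = 4.3e-06), in 11 and 12 of 12 conditions. Nsdhl and Hsd17b7 complete that later demethylation. Nsdhl stood at 0, 26.6 and 61.2 CPM under DMSO, 15.9, 35.2 and 75.6 under dCA and 23.8, 58.3 and 109 under BRD-6989, with a change of 0.65 ± 0.34 (adjusted p = 0.21) under dCA and a rise of 1.23 ± 0.33 (adjusted p = 0.004) under BRD-6989. Hsd17b7 stood at 10.7, 30.9 and 54.4 CPM under DMSO, 8.77, 42.1 and 91.1 under dCA and 28.1, 63.1 and 103 under BRD-6989, with a change of 0.64 ± 0.31 (adjusted p = 0.16) and a rise of 1.24 ± 0.30 (adjusted p = 0.0013). For neither gene was the difference between the inhibitors called, at 0.58 ± 0.32 (adjusted p = 0.40) and 0.60 ± 0.29 (adjusted p = 0.29).

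Sc5d, the lathosterol desaturase, stood at 7.20, 32.5 and 54.9 CPM under DMSO, 47.3, 62.4 and 107 under dCA and 26.95, 77.8 and 125 under BRD-6989. It rose by 1.12 ± 0.25 (adjusted p = 7.3e-04) and by 1.20 ± 0.25 (adjusted p = 1.8e-04), in 10 and 11 of 12 conditions. Ebp, the sterol isomerase just before it, stood at 13.01, 27.4 and 72.7 CPM under DMSO, 14.1, 44.9 and 79.2 under dCA and 22.2, 42.5 and 74.4 under BRD-6989, and its changes of 0.57 ± 0.30 (adjusted p = 0.21) and 0.41 ± 0.29 (adjusted p = 0.37) missed the threshold. Dhcr7 and Tm7sf2, 2 sterol reductases, did not pass the filter on low counts. Dhcr7 stood at 3.43, 14.7 and 55.3 CPM under DMSO, 7.02, 25.5 and 57.3 under dCA and 8.33, 19.8 and 31.1 under BRD-6989. Tm7sf2 averaged 10.2 ± 8.13 CPM under DMSO, 23.5 ± 14.4 under dCA and 18.4 ± 8.17 under BRD-6989 (SD, n = 12 libraries). In a fit with no filter Tm7sf2 changed by 1.25 ± 0.48 (adjusted p = 0.11) and 0.92 ± 0.48 (adjusted p = 0.32), and Dhcr7 by 0.74 ± 0.43 (adjusted p = 0.45) and 0.49 ± 0.43 (adjusted p = 0.72), none past the threshold.

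Among the regulators, the retention factor Insig1, itself an SREBP target, stood at 101, 206 and 268 CPM under DMSO, 173, 265 and 441 under dCA and 197, 263 and 444 under BRD-6989. It rose by 0.46 ± 0.13 (adjusted p = 0.007) and by 0.51 ± 0.13 (adjusted p = 0.0018), in 10 and 9 of 12 conditions. Stard4, a sterol carrier of the cytosol and another SREBP target, stood at 38.6, 106 and 166 CPM under DMSO, 117, 147 and 220.2 under dCA and 103, 129 and 192 under BRD-6989, with a rise of 0.61 ± 0.18 (adjusted p = 0.012) under dCA and a change of 0.42 ± 0.18 (adjusted p = 0.096) under BRD-6989. Srebf1 went the other way. It stood at 130.2, 183 and 340.1 CPM under DMSO, 53.3, 163 and 249 under dCA and 57.4, 116 and 205 under BRD-6989, with a change of -0.33 ± 0.18 (adjusted p = 0.21) under dCA and of -0.63 ± 0.18 (adjusted p = 0.0061) under BRD-6989, where it fell and was higher than under DMSO in 2 of 12 conditions. With the Rn45s share as a covariate that change of Srebf1 was 0.11 (adjusted p = 0.94). Srebf2, which encodes SREBP-2, stood at 10.8, 29.8 and 92.4 CPM under DMSO, 11.7, 28.2 and 66.7 under dCA and 8.90, 34.4 and 65.6 under BRD-6989 and was called under neither inhibitor, at -0.15 ± 0.36 (adjusted p = 0.85) and 0.08 ± 0.35 (adjusted p = 0.91). Scap stood at 17.1, 75.98 and 176 CPM under DMSO, 29.2, 81.5 and 139 under dCA and 30.5, 49.4 and 89.8 under BRD-6989, with changes of 0.26 ± 0.22 (adjusted p = 0.48) and -0.38 ± 0.22 (adjusted p = 0.25). Insig2, the second retention factor, did not pass the filter and stood at 7.20, 21.7 and 61.4 CPM under DMSO, 0, 14.5 and 23.4 under dCA and 9.27, 28.6 and 64.5 under BRD-6989. In the fit with no filter it changed by -0.91 ± 0.42 (adjusted p = 0.25) and 0.35 ± 0.39 (adjusted p = 0.80). It was higher under BRD-6989 than under dCA in 12 of 12 conditions, with a difference of 1.26 ± 0.41 (adjusted p = 0.12) that missed the threshold. UMI counts of Srebf1 do not separate its transcript forms.

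Among the fatty acid genes, Acly, which makes cytosolic acetyl-CoA from citrate, stood at 68.00, 109 and 227 CPM under DMSO, 70.2, 155 and 266 under dCA and 73.7, 164 and 194 under BRD-6989. It rose by 0.48 ± 0.16 (adjusted p = 0.024) and by 0.42 ± 0.15 (adjusted p = 0.041), with the highest adjusted p of the genes called under each inhibitor, and the call was lost in 10 of 22 other settings under dCA and in 14 of 22 under BRD-6989, where the adjusted p reached 0.33 and 0.86. Acaca, acetyl-CoA carboxylase, stood at 5.15, 28.8 and 74.3 CPM under DMSO, 15.3, 27.5 and 51.7 under dCA and 9.27, 29.2 and 61.00 under BRD-6989, with changes of 0.29 ± 0.35 (adjusted p = 0.66) and 0.33 ± 0.34 (adjusted p = 0.57). Fasn, fatty acid synthase, stood at 132, 222 and 334 CPM under DMSO, 249, 355 and 565 under dCA and 128, 254 and 427 under BRD-6989. It rose by 0.75 ± 0.14 (adjusted p = 6.1e-05) under dCA, in 11 of 12 conditions, and its change under BRD-6989 was 0.28 ± 0.14 (adjusted p = 0.17). The direct difference, BRD-6989 minus dCA, was -0.47 ± 0.14 (adjusted p = 0.047), lower in 9 of 12 conditions, and Fasn was the 1 gene of the 27 called in that comparison, where 3.3% of all genes were called. The inhibitors were used at different doses, and this call was lost in 14 of 23 other settings, where the adjusted p reached 0.99. Without NoStim, MDP_LPS, CpG, R848, SeV, Zymosan, TDB or MDP in turn it was not past the threshold.

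Scd2, the desaturase that makes oleate in many tissues other than liver, stood at 72.7, 121 and 244 CPM under DMSO, 146, 195 and 424 under dCA and 189.9, 271 and 394 under BRD-6989. It rose by 0.80 ± 0.13 (adjusted p = 6.6e-06) under dCA and by 1.15 ± 0.13 (adjusted p = 5.5e-10) under BRD-6989, in 11 and 12 of 12 conditions. Fads1, a desaturase of polyunsaturated fatty acids, stood at 0, 42.2 and 119 CPM under DMSO, 18.9, 39.8 and 63.2 under dCA and 11.98, 48.05 and 71.04 under BRD-6989 and was not called, at 0.08 ± 0.31 (adjusted p = 0.91) and 0.18 ± 0.31 (adjusted p = 0.75). Elovl5, an elongase of the same chains, stood at 28.9, 59.02 and 149.6 CPM under DMSO, 28.3, 51.7 and 107 under dCA and 53.4, 84.1 and 122 under BRD-6989, with changes of -0.14 ± 0.22 (adjusted p = 0.75) and 0.43 ± 0.21 (adjusted p = 0.15). Scd1, Acss2, Elovl6 and Fads2 did not pass the filter. Scd1, a desaturase like Scd2, stood at 0, 12.3 and 29.7 CPM under DMSO, 0, 11.7 and 111 under dCA and 5.55, 37.3 and 66.1 under BRD-6989, and in the fit with no filter it changed by 0.72 ± 0.46 (adjusted p = 0.53) under dCA and rose by 1.78 ± 0.43 (adjusted p = 9.4e-04) under BRD-6989. Acss2, which makes acetyl-CoA from acetate, stood at 0, 13.9 and 51.4 CPM under DMSO, 3.82, 24.1 and 43.8 under dCA and 8.33, 32.8 and 52.5 under BRD-6989, with changes of 0.51 ± 0.41 (adjusted p = 0.70) and 1.07 ± 0.40 (adjusted p = 0.082) in that fit. Elovl6, which elongates palmitate, stood at 6.86, 19.3 and 35.8 CPM under DMSO, 0, 35.5 and 70.1 under dCA and 8.18, 28.4 and 53.9 under BRD-6989, with changes of 0.80 ± 0.38 (adjusted p = 0.28) and 0.46 ± 0.38 (adjusted p = 0.69). Fads2 held 5, 22 and 26 UMI in all under DMSO, dCA and BRD-6989.

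Genes next to the route were tested in the same fit, where, as above, 9.82% of all genes were higher and 8.12% lower under dCA, and 10.5% each way under BRD-6989. Of 18 LXR target, efflux, storage and oxysterol genes tested, 5 were higher and 2 lower under dCA, and 5 higher and 1 lower under BRD-6989. Abca1, the LXR-induced cholesterol exporter, averaged 237 ± 66.8 CPM under DMSO, 397 ± 74.1 under dCA and 397 ± 64.7 under BRD-6989, and rose by 0.83 ± 0.11 (adjusted p = 1.1e-07) and 0.79 ± 0.11 (adjusted p = 1.7e-07). Lipa, the lysosomal acid lipase that frees cholesterol from lipoprotein esters, averaged 332 ± 62.7 CPM under DMSO, 574 ± 111 under dCA and 691 ± 86.6 under BRD-6989, and rose by 0.85 ± 0.09 (adjusted p = 2.4e-11) and 1.09 ± 0.09 (adjusted p = 2.5e-15). Apoe, an LXR target and lipid carrier, fell: it averaged 199 ± 36.5 CPM under DMSO, 115 ± 32.3 under dCA and 103 ± 21.3 under BRD-6989, with changes of -0.73 ± 0.15 (adjusted p = 1.4e-04) and -0.91 ± 0.15 (adjusted p = 2.8e-06). Abcg1, an exporter to HDL and also an LXR target, averaged 81.3 ± 26.4 CPM under DMSO, 38.5 ± 19.7 under dCA and 73.4 ± 28.3 under BRD-6989, and fell under dCA with a change of -1.02 ± 0.27 (adjusted p = 0.0036), while its change under BRD-6989 was -0.12 ± 0.25 (adjusted p = 0.79). Of 14 further fatty acid genes tested, 2 were higher and 1 lower under dCA, and 4 higher and 1 lower under BRD-6989. Hsd17b12, the ketoacyl reductase of elongation, rose by 0.60 ± 0.20 (adjusted p = 0.03) and 0.93 ± 0.20 (adjusted p = 2.7e-04), and Acsl3, an acyl-CoA synthetase, by 0.92 ± 0.30 (adjusted p = 0.024) and 1.29 ± 0.30 (adjusted p = 7.3e-04). Of the 2 isoprenoid branch genes tested, neither was called.

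TF-seq, in which each reporter construct carries its own sequence tag, was counted in the same wells for 58 reporters and read in the same 36 summed libraries, which held 6584 to 42762 reporter counts. The sources used here do not say by what means the constructs were brought into the macrophages. The SREBP reporter, scaled to 1000000 reporter counts per library, stood at 10364, 12295 and 15188 under DMSO, 13754, 15634 and 19406 under dCA and 13489, 16175 and 19203 under BRD-6989. On this scale, without TMM, it was higher in 12 of 12 conditions under both inhibitors. The minimal promoter reporter was higher in 11 and 7, the SP1 reporter in 12 and 11 and the NF-Y reporter in 10 and 8. With TMM the log2 change of the SREBP reporter was 0.23 ± 0.04 (adjusted p = 1.2e-07) under dCA and 0.27 ± 0.04 (adjusted p = 2.0e-09) under BRD-6989. Among all 58 reporters 36.2% were called under each inhibitor. Set over the minimal promoter reporter of the same library, the SREBP reporter averaged 0.948 ± 0.119 (SD, n = 12) under DMSO, 1.11 ± 0.097 under dCA and 1.18 ± 0.137 under BRD-6989. The LXR reporter stood at 7188, 7618 and 9195 under DMSO, 7086, 9241 and 10585 under dCA and 6764, 8893 and 11011 under BRD-6989 and was not called, at 0.04 ± 0.06 (adjusted p = 0.62) and 0.05 ± 0.06 (adjusted p = 0.51). Of 3 PPARg reporters, 1 was called, PPARg_38, with a change of -0.17 ± 0.04 (adjusted p = 5.2e-04) under dCA. The SP1 reporter rose as well, by 0.18 ± 0.04 (adjusted p = 1.8e-05) and 0.18 ± 0.04 (adjusted p = 3.8e-05). The NF-Y reporter was not called, at -0.01 ± 0.04 (adjusted p = 0.95) and -0.05 ± 0.04 (adjusted p = 0.33). Without TMM scaling the median change of all reporters was 0.11 under dCA and 0.12 under BRD-6989, against -0.01 under both with it. The SREBP reporter was then higher by 0.36 and 0.40, and PPARg_38 changed by -0.04 under dCA and was no longer called. The LXR reporter, at 0.17 and 0.18, was called on that scale. So were most reporters, 39 of all 58 under dCA and 36 under BRD-6989. The NF-Y reporter was then at 0.11, called, under dCA and at 0.08, not called, under BRD-6989.

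**Figure D3:**
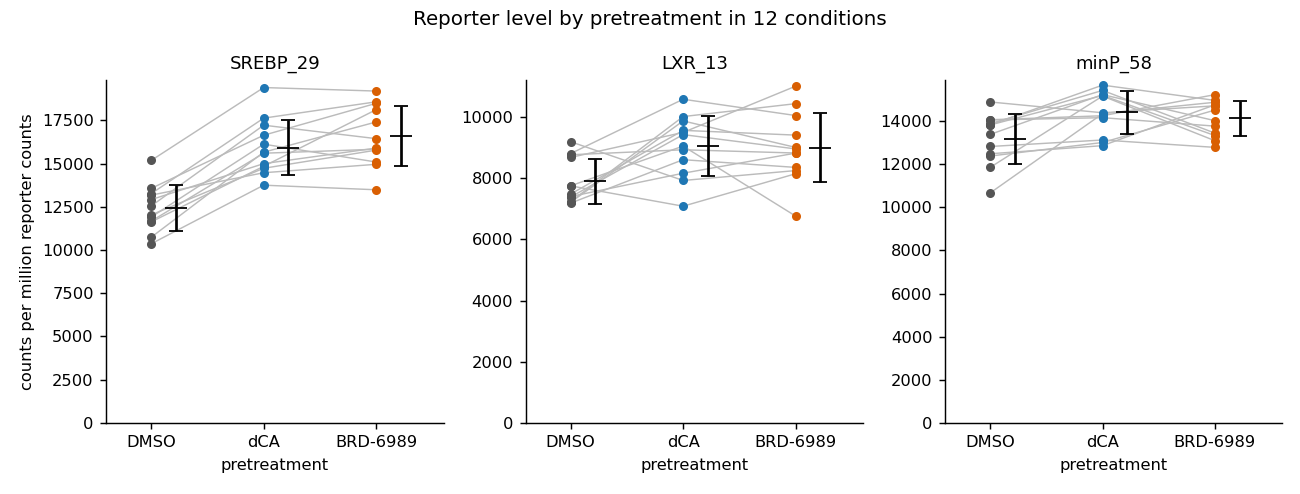
Reporter level in CPM of all reporter counts (vertical axis) for the SREBP, LXR and minimal promoter reporters by pretreatment. Each point is 1 library summed over 8 times, lines join a condition across plates, and bars give the mean and SD over 12 libraries. The SREBP reporter is higher under each inhibitor in 12 of 12 conditions.

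In the unstimulated wells alone, 8 per pretreatment, the question was whether the inhibitors acted on these genes without a ligand. Single wells held few UMI of each gene, and of the 28 genes tested none was called under either inhibitor by edgeR's quasi-likelihood test, where 0.908% of all genes were called under dCA and 1.06% under BRD-6989. At an unadjusted p under 0.05 stood 4 of the 28 genes under dCA and 10 under BRD-6989, against 444 and 483 of all 5834 genes. DESeq2 called 2 and 1 of the 28, and 88 and 96 of all genes. The median change of the 28 was 0.66 and 0.99, against -0.02 and 0.07 over all genes tested. The summed sterol enzymes, as the lowest, median and highest of 8 wells, stood at 513, 796 and 1162 CPM under DMSO, 716, 1508 and 1768 under dCA and 1389, 1681 and 1989 under BRD-6989. They were higher than the DMSO well of the same time at 8 of 8 times under each inhibitor, and the BRD-6989 wells all lay above the DMSO wells while the dCA wells overlapped them. Fatty acid genes summed to 387, 787 and 1097 CPM under DMSO, 555, 901 and 1154 under dCA and 383, 981 and 1413 under BRD-6989, higher at 4 of 8 times under dCA and 6 of 8 under BRD-6989.

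Lss had the smallest p among the 28. It stood at 0, 0 and 69.7 CPM under DMSO, 0, 177 and 361 under dCA and 23.2, 145 and 234 under BRD-6989, with changes of 2.99 ± 0.95 (adjusted p = 0.12) and 2.97 ± 0.93 (adjusted p = 0.098), and its DMSO wells rested on 4 UMI in all. Stard4 stood at 0, 27.9 and 214 CPM under DMSO, 44.2, 220.1 and 583 under dCA and 51.1, 203 and 323 under BRD-6989, with changes of 2.04 ± 0.69 (adjusted p = 0.20) and 1.75 ± 0.67 (adjusted p = 0.32). Hmgcs1 stood at 0, 46.5 and 228 CPM under DMSO, 0, 68.1 and 207 under dCA and 83.02, 149 and 481 under BRD-6989, with 0.21 ± 0.72 (adjusted p = 0.99) and 1.65 ± 0.72 (adjusted p = 0.46). Its wells under dCA and DMSO spanned nearly the same range. Scd2 stood at 30.6, 95.9 and 257 CPM under DMSO, 51.9, 102 and 336 under dCA and 51.1, 174 and 537 under BRD-6989, with 0.29 ± 0.63 (adjusted p = 0.98) and 0.80 ± 0.62 (adjusted p = 0.88). Insig1 was higher at 8 of 8 times under BRD-6989 and at 3 of 8 under dCA, with changes of 1.16 ± 0.51 (adjusted p = 0.47) and 0.25 ± 0.54 (adjusted p = 0.98).

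The stimuli were compared with NoStim in the wells of 60 min and later, summed over those 5 times, with the 3 pretreatment plates as the replicates of a stimulus. Of the 31 genes tested, 1 was called under 1 stimulus: Sqle fell with LPS, where 0.507% of all genes were lower and 3.91% were called either way. Its level with LPS was 0, 22.4 and 20.8 CPM on the DMSO, dCA and BRD-6989 plates, against 86.5, 109.5 and 110.3 without a stimulus. The LPS values are low on all 3 plates and rest on 0, 4 and 5 UMI in 5 wells each, and a count of 0 on the DMSO plate allows up to 19.8 CPM. The change was -2.70 ± 0.59 (adjusted p = 0.0014) by edgeR's quasi-likelihood test, and -2.62 ± 0.50 (adjusted p = 2.4e-04) against the mean of the other 11 conditions, where 2.79% of all genes were called. It was -2.22 or stronger without each plate in turn. In the 3 earlier wells of each plate the level with LPS was 63.8, 65.8 and 166, and with all 8 times summed the change was -0.94 with an adjusted p of 0.29, so that the call is limited to the later wells. With MDP_LPS, whose label also names LPS, the later level was 31.1, 103 and 109 and the change -0.33 ± 0.47 (adjusted p = 0.87). Sqle with CpG stood at 23.1, 66.9 and 139, with a change of -0.49 ± 0.49 (adjusted p = 0.88).

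Scd2 was the 1 gene of the 31 called in a joint test of any difference among the 11 stimuli and NoStim (adjusted p = 0.038), where 6.39% of all genes were called. Its highest levels on the dCA and BRD-6989 plates came with Poly(I:C), at 199.9, 441 and 399 CPM on the 3 plates, against 127, 151 and 221 without a stimulus. Higher on 3 of 3 plates, it changed by 1.11 ± 0.33 (adjusted p = 0.055) against NoStim, just short of the threshold, and rose by 0.93 ± 0.22 (adjusted p = 0.0059) against the mean of the other 11 conditions, where 3.3% of all genes were called. With all 8 times summed the change against NoStim was 1.13. In the earlier wells the level with Poly(I:C) was 306, 398 and 386, against 125, 157 and 232 without a stimulus. Poly(I:C) also filled its own column on each plate, so stimulus and column cannot be told apart.

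**Figure D4:**
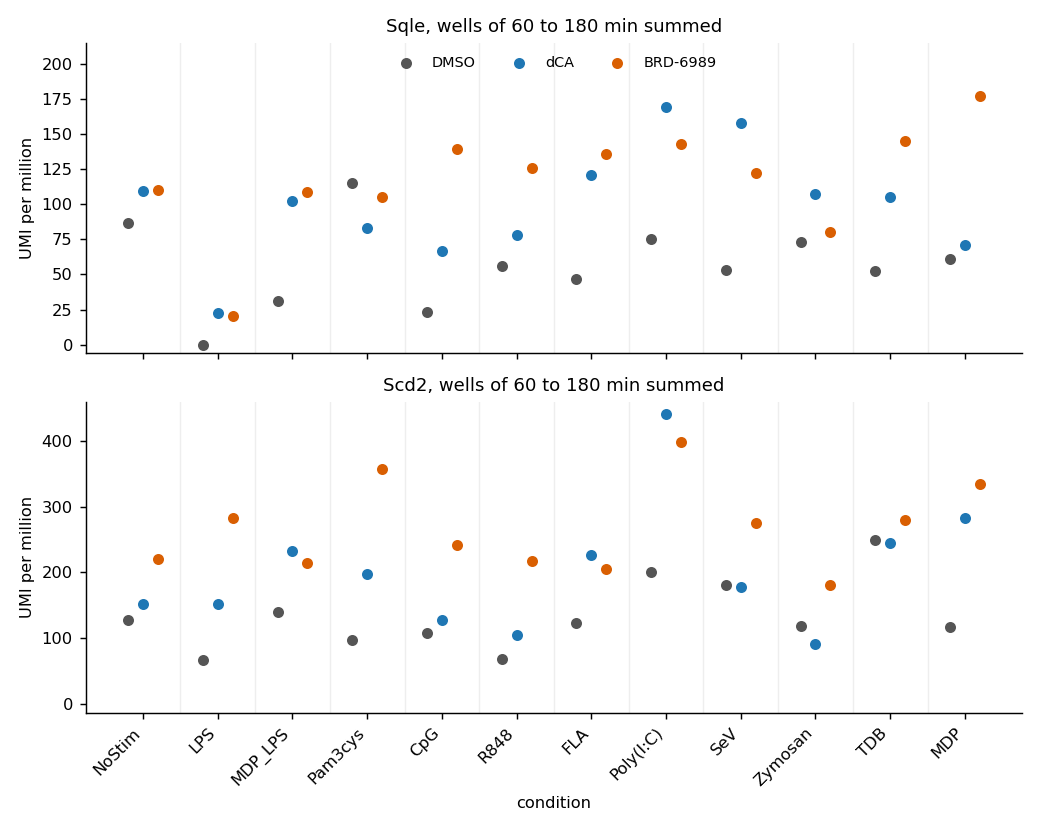
Level in CPM (vertical axis) of Sqle and Scd2 in each condition, wells of 60 to 180 min summed, with 1 point per pretreatment plate. Sqle is lowest with LPS on all 3 plates, at 0 to 22.4, and Scd2 is highest with Poly(I:C) on the dCA plate, at 441.

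For the other genes, and for the other 10 stimuli, no call was made in either direction. Of all genes, 3.58% were called with MDP_LPS, 1.96% with Pam3cys, 1.73% with CpG, 2.52% with R848 and 1.05% with FLA. The share was 2.58% with Poly(I:C), 0.206% with SeV, 2.99% with Zymosan, 0.111% with TDB and 0.0792% with MDP. At an unadjusted p under 0.05 stood 0 to 4 of the 31 genes per stimulus. Counts at that p for the stimuli stand without the share over all genes and are not read as results. The median change of the 31 genes ran from -0.07 with R848 to 0.35 with Poly(I:C), against -0.04 to 0.02 for all genes. Hmgcs1 with R848 came nearest among the sterol enzymes, at 209, 287 and 364 CPM against 109.5, 67.8 and 207, a change of 1.21 ± 0.39 (adjusted p = 0.088). With all 8 times summed 3 more calls appeared, Acly lower with LPS at -1.18 (adjusted p = 0.024), Idi1 higher with MDP_LPS at 1.08 (adjusted p = 0.022) and Scd2 with Poly(I:C). Over the mean of the 11 stimuli 0 of the 31 were called, where 2.36% of all genes were, and 2 reached an unadjusted p under 0.05. Between LPS, MDP_LPS, Poly(I:C) and SeV, which can induce interferon, and Pam3cys, CpG, R848 and FLA, 0 were called, where 2.11% of all genes were, and 4 reached an unadjusted p under 0.05. The SREBP reporter was lower with LPS than without a stimulus, at -0.32 ± 0.11 (adjusted p = 0.014), and its change over the mean of the 11 stimuli was -0.19 ± 0.09 (adjusted p = 0.13), where 19% of all reporters were called. Without TMM scaling, where the median change of all reporters in that comparison was -0.15 against 0.03 with it, the latter was -0.37 and was called. On that scale 19 of all 58 reporters were called. The SP1 reporter was also lower with LPS, at -0.27 ± 0.10 (adjusted p = 0.022), while the NF-Y reporter was not called, at 0.16 ± 0.12 (adjusted p = 0.36). By the same edgeR test the SP1 reporter was lower with SeV (-0.31, adjusted p = 0.025) and Zymosan (-0.29, adjusted p = 0.017) as well. The SREBP reporter was not called with either, at -0.18 and -0.17. The share of all reporters called with LPS, SeV or Zymosan is not given, so these single calls are not read as results.

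Time after stimulation was tested as a linear slope per hour in 24 libraries, each summed over the 11 stimuli of a plate and time, with 32 genes tested. Of these 1 rose and 1 fell, where 6.46% of all genes rose and 2.47% fell, and both were regulators. Srebf2 at 15, 30, 45, 60, 90, 120, 150 and 180 min stood at 23.01, 36.1, 19.5, 37.3, 26.7, 27.7, 57.04 and 70.9 CPM under DMSO. Under dCA it stood at 24.3, 18.7, 15.5, 36.4, 43.1, 45.6, 38.5 and 34.2, and under BRD-6989 at 47.2, 24.7, 32.96, 18.6, 29.2, 44.5, 51.8 and 49.6. The values are uneven, and highest at the end under DMSO. The slope was 0.39 ± 0.12 per hour on the log2 scale (adjusted p = 0.026).

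Stard4 fell over the same times and stood at 119.6, 130.4, 145, 142, 87.5, 102, 91.8 and 53.2 CPM under DMSO. Under dCA it stood at 198, 206, 159.8, 133, 129, 109.9, 131 and 88.9, and under BRD-6989 at 198, 156, 132, 86.97, 89.7, 160.4, 124 and 105. Its slope was -0.28 ± 0.07 per hour (adjusted p = 0.0096), with the lowest level at 180 min on the DMSO and dCA plates and at 60 min on the BRD-6989 plate. Neither call is firm: without each plate in turn the Srebf2 slope ranged from 0.31 to 0.45 and was never called, and the Stard4 slope was called only without the BRD-6989 plate. In NoStim wells 0 of 28 genes had a slope past the threshold, where 0.0171% of all genes did and 1 of the 28 reached an unadjusted p under 0.05. Stard4 had a slope of 0.06 ± 0.25 per hour there, and the difference of slopes was called for neither gene, at 0.93 ± 0.47 for Srebf2 (adjusted p = 0.40) and -0.34 ± 0.23 for Stard4 (adjusted p = 0.56). Among the 34 genes 0 differed in slope between stimulated and NoStim wells, where 0.784% of all genes did, and 3 reached an unadjusted p under 0.05. Counts at that p for the slopes also stand without the share over all genes and are not read as results.

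**Figure D5:**
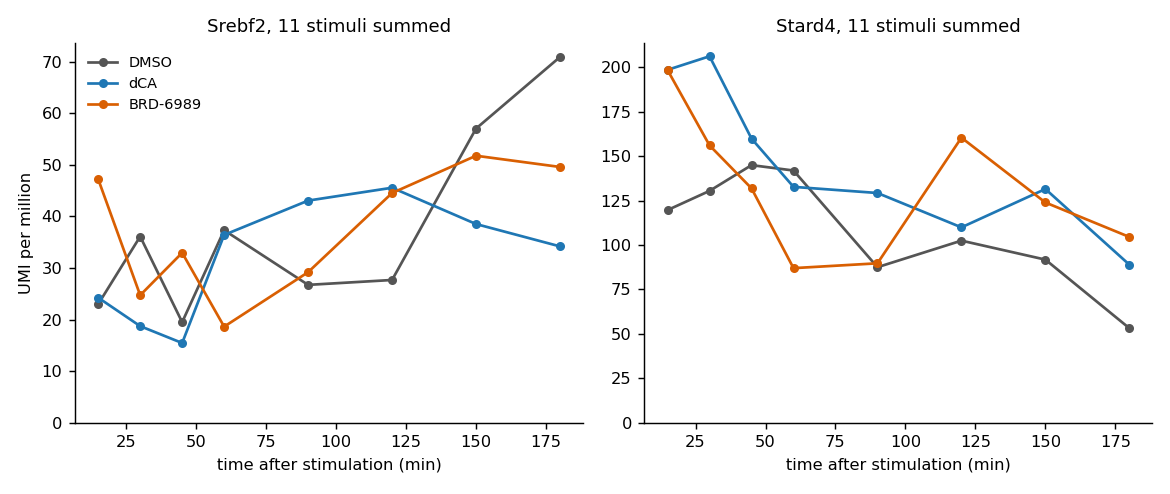
Level in CPM (vertical axis) of Srebf2 and Stard4 against time after stimulation in minutes, with 1 point per plate and time summed over 11 stimuli. Stard4 ends at 53.2 under DMSO and 88.9 under dCA, below its values at 15 min of 119.6 and 198.5.

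Whether the inhibitors changed the response to the stimuli was tested in the 180 wells of 60 min and later, as the inhibitor's effect over the 11 stimuli minus its effect in NoStim. Of the 30 genes tested 0 were called for dCA and 0 for BRD-6989 by edgeR's quasi-likelihood test, and 0% of all 5771 genes were called for either. At an unadjusted p under 0.05 stood 4 and 2 of the 30 genes, and 333 and 259 of all genes. Adjusted p in this test was 0.72 or higher for all 30. Hmgcs1 had an interaction of 1.73 ± 0.79 for dCA and 0.25 ± 0.71 for BRD-6989. Ebp had the smallest p under both inhibitors, with -3.95 ± 1.57 and -3.42 ± 1.52, and its DMSO NoStim wells held 6 UMI over all 8 times. Lss had -3.37 ± 1.45 and -3.06 ± 1.45, and its NoStim values are those on few UMI given above. Sc5d had -3.29 ± 1.56 and -2.35 ± 1.41, and its DMSO NoStim wells held 2 UMI over all 8 times. In the 36 summed libraries, where 27 of the genes were tested, 0 were called as well. Any difference in effect between conditions was also tested in the 180 wells, by edgeR's quasi-likelihood test with 11 degrees of freedom. The smallest adjusted p there was 0.29 for dCA (Pmvk) and 0.61 for BRD-6989 (Acss2). Acss2 held 2 UMI in its DMSO NoStim wells over all 8 times. In the test of the mean over the 11 stimuli its SE was far above its estimate under both inhibitors. These tests do not show that the effect was equal across stimuli.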

How the data were processed

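Expression was measured in 288 wells of BMDMs by 3′ digital gene expression, and reporters by TF-seq. The authors deposited UMI counts and total read counts per gene and counts per reporter. The numbers in their file of normalized reporter values equal the reporter counts, so it was set aside. Per the submitters' processing notes, BWA, edgeR and the mouse build mm10 were used. Their versions, the annotation and the counting steps were not given in the sources used here.

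Wells were grouped by pretreatment, stimulus and time from the labels. The gene members and all gene lists were chosen with earlier results of these data known. Rn45s, 43.6% to 52.7% of UMI on average per plate, was left out of totals and tests. Counts were tested with edgeR 4.0.16 (TMM, quasi-likelihood, limma 3.58.1, R 4.3.3, data.table version 1.17.8), two-sided, with Benjamini-Hochberg adjustment within each comparison and 0.05 as the threshold. Genes were kept in summed libraries by filterByExpr (minimum count 10) and in single wells by an average of 1 UMI or more. Blocks were the 12 conditions (inhibitors), the plates (stimuli, slopes) or the times (single wells), matched by the labels, and they pair wells by position only. SE was taken as the log2 change over the square root of F, and intervals use 1.96 SE. Fits were first tested on simulated data. Alternatives were DESeq2 1.42.0, other scaling and filters, total reads, the Rn45s share as a covariate, no replicate block, and conditions, times or plates left out in turn. Summing by time, the mean of the other 11 conditions as reference and summed libraries for the response were added after seeing the data. The floor of a count of 0 is 3 counts, and floors cover counting error only.

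By a fixed rule, full values are given for genes averaging 20 CPM or more or called under an inhibitor, others by range; per stimulus up to 3 called genes, and per related list up to 3 called examples each way, are named. Hmgcs1 with R848, Sqle with MDP_LPS and CpG, and the genes given for NoStim wells and for the response were chosen after their values were seen. Figures were drawn with matplotlib.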

Additional observations from a re-analysis of the deposited data

Results flagged for a closer look

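Among the 8 NoStim wells of a pretreatment, 42 groups were examined for 1 well far from the others (genes with a mean level of at least 100 CPM, Lss, and the 3 sums), and 6 stood out by the gap between the extreme well and its neighbour. The rule's nominal rate of 1 in 20 assumes normal values. It may not hold here, since wells held few UMI and the sums contain the single genes. Under DMSO, the highest Fdps well, at 90 min, held 423 CPM on 12 UMI, against 139 for the next. The highest Lss well under DMSO, at 45 min, held 69.7 on 2 UMI, against 26.1; without that time Lss was called under both inhibitors. The sum of the sterol regulators under DMSO was highest at 90 min, at 1198, against 740 for the next well. Under dCA, Srebf1 was highest at 45 min, at 623 on 24 UMI, against 266, and Stard4 at 150 min, at 583 on 21 UMI, against 252. The sum of the sterol enzymes under dCA was lowest at 120 min, at 716, against 1318 for the next well.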

How the results depend on the processing

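Under dCA, Hmgcs1, Idi1, Mvd, Lss, Msmo1, Scd2 and Fasn kept their direction and call in all settings that tested them, and under BRD-6989 Hmgcs1 and Idi1 did. The number of genes higher under dCA and BRD-6989, 16 and 16, was 9 and 13 with total read counts and 12 and 4 with the Rn45s covariate. It was 5 and 4 of 7 tested with a filter of 50 UMI per library on average, which leaves fewer genes, 15 and 15 without the replicate block, 16 and 16 with DESeq2, and 14 to 17 and 15 to 17 without each condition in turn. The 1 gene lower under BRD-6989, Srebf1, became 0 with total read counts and with the Rn45s covariate, where its change reversed to 0.11; the cause was not tested. The 1 gene lower in BRD-6989 minus dCA, Fasn, became 0 with total reads, no TMM, the Rn45s covariate, no replicate block, later wells or sums by time, and was 0 to 1 without each condition; genes higher there were 1 with DESeq2 (Cyp51) and 2 with the stricter filter (Idi1 and Scd2). In NoStim wells 1 gene was called under dCA without the replicate block, and 2 under dCA and 1 under BRD-6989 with DESeq2. Without each time in turn, it was 0 to 1 under both inhibitors. Calls of these genes higher with a stimulus were 1 with DESeq2, 1 against the other 11 conditions and 2 with all 8 times; the 1 lower call, Sqle with LPS, ranged from -3.08 to -0.94 and was lost with all 8 times. The slope calls, 1 higher and 1 lower, were 0 higher with total reads, and 0 higher and 0 to 1 lower without each plate. Without TMM, 3 of the SREBP, LXR and PPARg reporters were higher under each inhibitor, 0 lower under dCA and 2 lower over the mean of 11 stimuli. Of all 58 reporters, 39 were then called under dCA, 36 under BRD-6989 and 19 over the mean of 11 stimuli. Leaving the replicate block out changed no other count of these genes by over 1.5 times, but calls over all genes went from 188 to 62 in BRD-6989 minus dCA, from 149 to 75 over the mean of 11 stimuli and from 133 to 87 between the interferon-inducing and the other stimuli. Depth limits single wells most, since many of these genes had 0 UMI in several NoStim wells.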
